A study of Mus musculus with 12 samples.

Results

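The 10 genes described here are feedback inhibitors of the ERK pathway and the SHP tyrosine phosphatases, namely Dusp1, Dusp2, Dusp4, Dusp5, Dusp6, Dusp10, Spry1, Spry2, Ptpn6 (SHP-1) and Ptpn11 (SHP-2). They were taken by symbol from a mouse liver T cell count table of 25078 genes, all 10 were listed, and all 10 passed the filter on low counts in every fit. The question was how their transcripts differed when donor T cells lacked STAT3, or both STAT3 and PD-1, and whether CD4 and CD8 T cells differed. Donor T cells carrying H-2Kb and TCRβ were sorted as CD4+ or CD8+ cells from the livers of lethally irradiated WT BALB/c mice on day 6 after transplantation (HCT) of C57BL/6 marrow depleted of T cells together with C57BL/6 T cells. The donor T cells were WT, STAT3ko (Stat3 fl/fl with CD4-Cre, which deletes in T cells) or STAT3ko PD-1ko (the same with PD-1 also absent in the germline). The marrow and the recipients were thus the same in kind for all groups, and the donor T cells differed. Each of the 6 groups (CD4 or CD8 by genotype) held 2 libraries, each from a pool of 3 recipients, and the CD8 libraries came from the same livers as the CD4 libraries. The 12 libraries held between 21676125 and 24551477 counts, with a median of 23442480. Loss of PD-1 without loss of STAT3 was not among the groups.

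Antigen receptor signalling activates Ras, RAF, MEK and ERK in turn, and ERK then induces transcripts whose products switch the pathway off again. The dual-specificity phosphatases (DUSP) remove phosphate from MAP kinases: DUSP5 and DUSP6 act on ERK in the nucleus and the cytoplasm, DUSP1, DUSP2 and DUSP4 are inducible nuclear enzymes with wider targets, and DUSP10 prefers the stress kinases p38 and JNK. Sprouty proteins, encoded by Spry1 and Spry2, restrain Ras-ERK signalling upstream of the kinases. SHP-1 dampens antigen receptor signalling, and SHP-2 is the phosphatase that the cytoplasmic tail of PD-1 recruits, although in many growth factor pathways SHP-2 is needed for ERK activation.

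The stretches of 250 bases that end just before the RefSeq start (build GRCm38.p6, the patch level of mm10) were available for 9 of the 10 genes, and 4 are shown because they belong to the genes on which the results below turn. Dusp1, Dusp5 and Dusp10 had the largest fitted differences between STAT3ko PD-1ko and WT in the fits without a term for the replicate number. Ptpn11 was higher in STAT3ko PD-1ko in every same-number pair. They read 5′ to 3′ on the strand of the gene, from chr17:26508473-26508722 on the minus strand, chr19:53528895-53529144 on the plus strand, chr1:184034131-184034380 on the plus strand and chr5:121191398-121191647 on the minus strand. Capitals mark matches, on either strand, to a cAMP response element (CRE, TGACGTCA), an ETS core (CCGGAA) or a CArG box.
Dusp1: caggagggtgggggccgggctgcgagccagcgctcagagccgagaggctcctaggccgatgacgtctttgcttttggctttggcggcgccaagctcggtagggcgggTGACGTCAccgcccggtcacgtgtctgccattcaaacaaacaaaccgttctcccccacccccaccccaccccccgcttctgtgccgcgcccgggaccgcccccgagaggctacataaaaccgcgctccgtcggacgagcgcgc
Dusp5: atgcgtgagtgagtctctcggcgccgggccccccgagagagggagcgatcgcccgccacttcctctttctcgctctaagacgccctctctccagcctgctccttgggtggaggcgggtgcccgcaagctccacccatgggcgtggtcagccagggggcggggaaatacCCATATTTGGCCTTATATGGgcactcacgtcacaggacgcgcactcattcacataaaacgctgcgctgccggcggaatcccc
Dusp10: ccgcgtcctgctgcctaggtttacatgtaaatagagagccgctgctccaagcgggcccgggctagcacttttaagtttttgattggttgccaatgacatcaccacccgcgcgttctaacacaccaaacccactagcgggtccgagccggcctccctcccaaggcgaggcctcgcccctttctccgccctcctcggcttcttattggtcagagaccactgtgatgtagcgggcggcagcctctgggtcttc
Ptpn11: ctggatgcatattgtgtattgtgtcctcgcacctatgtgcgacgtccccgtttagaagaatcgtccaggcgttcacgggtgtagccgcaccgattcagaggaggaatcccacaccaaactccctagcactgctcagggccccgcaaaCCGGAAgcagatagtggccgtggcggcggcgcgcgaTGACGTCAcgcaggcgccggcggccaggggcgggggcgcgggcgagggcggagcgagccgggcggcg
The CRE letters stood at bases -143 to -136 of Dusp1 and -67 to -60 of Ptpn11, and 1.55% of all 32851 windows of this kind held them. The ETS letters of Ptpn11 stood at -103 to -98 and were held by 12% of windows. A pair of CArG boxes in Dusp5, at -82 to -73 and -72 to -63, abutted, and 1.47% of windows held at least 1. None of the 9 windows held a match to TTCNNNGAA, the letters of a STAT site (7.02% of windows), or to TGANTCA, those of AP-1 (6.75%). No match of one motif overlapped a match of another in these windows, and the windows of Dusp2, Dusp6, Dusp10, Spry1, Spry2 and Ptpn6 held none of the 5 motifs. These are matches of letters, not sites shown to be bound.

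The targeted genes followed the labels. Levels are given as CPM, the count of a gene relative to the library total on a common scale, after scaling of the 12 libraries by trimmed means (TMM). Stat3 was at 369 and 467 CPM in replicates 1 and 2 of CD4 WT, at 140 and 164 in CD4 STAT3ko, and at 157 and 219 in CD4 STAT3ko PD-1ko. In CD8 T cells Stat3 was at 397 and 384 CPM in WT, 149 and 136 in STAT3ko, and 154 and 235 in STAT3ko PD-1ko. Pdcd1, which encodes PD-1, was between 235 and 454 CPM in the 8 libraries with an intact gene, and at 55.1 and 26.0 CPM in CD4 and 93.6 and 65.6 CPM in CD8 STAT3ko PD-1ko cells. Neither transcript was absent, and the counts do not show which part of the gene was read. Cd4 was at 1242 CPM or more in every CD4 library and at 2.73 or less in every CD8 library, and Cd8a was at 589 CPM or more in every CD8 library and at 5.64 or less in every CD4 library. Cd3e was between 533 and 736 CPM in all 12.

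**Figure D1:**
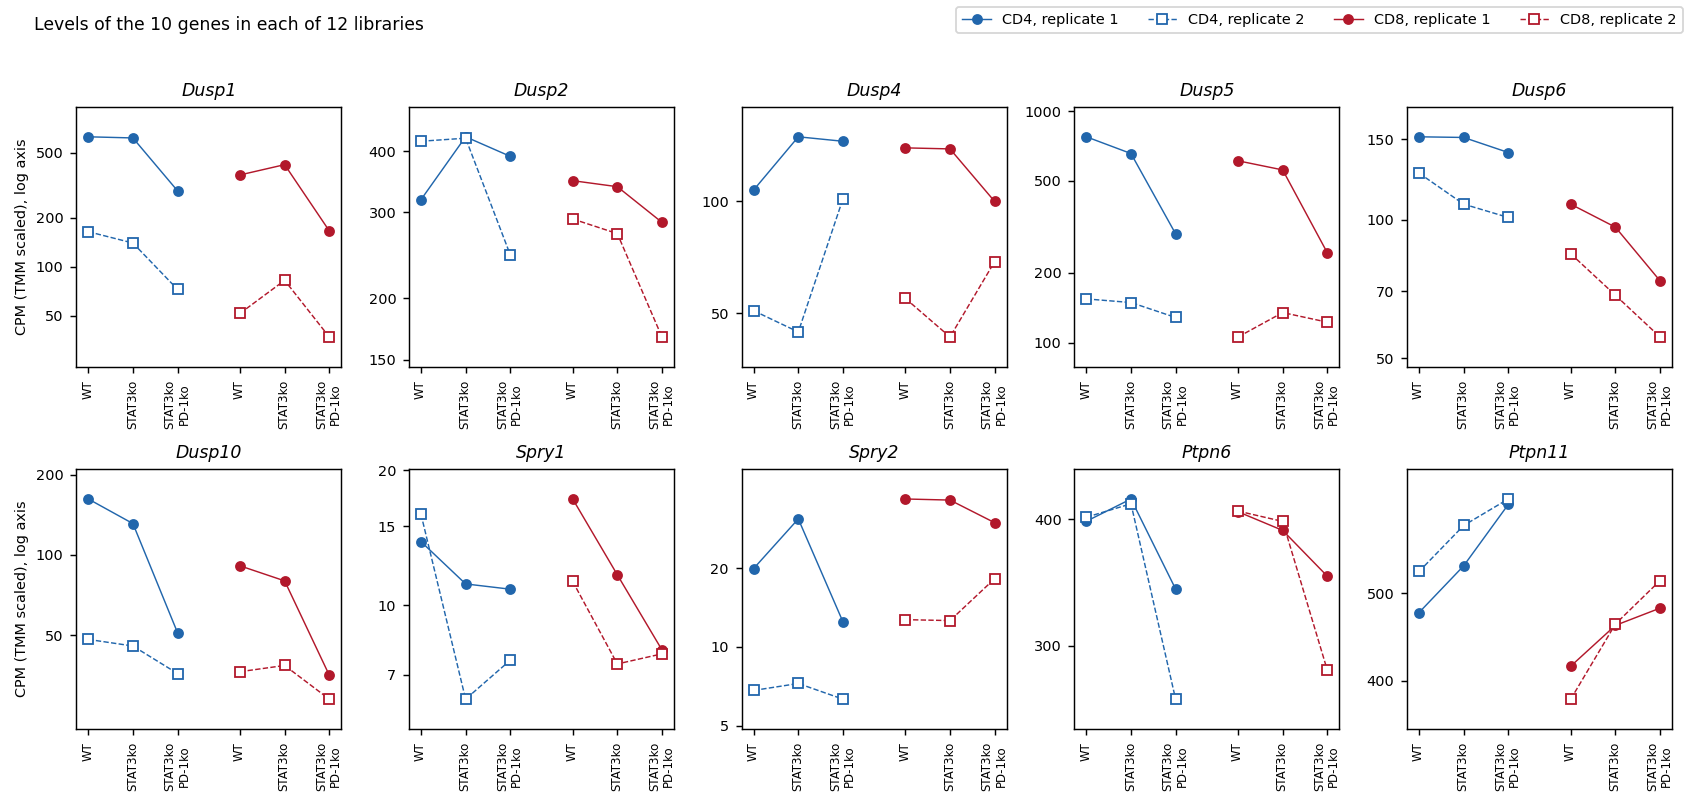
Level of each gene in every library in CPM on a log axis, with genotype on the horizontal axis and lines joining libraries of one subset and replicate number. Filled circles are replicate 1 and open squares replicate 2. Dusp1 lay between 37.0 and 629 CPM, whereas Ptpn6 stayed between 266 and 419.

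Replicate 1 and replicate 2 stood far apart for several of these genes, and this is given first because every later comparison rests on the same libraries. Dusp1, an immediate early phosphatase gene at chr17:26505591-26508472, was at 629, 619 and 293 CPM in replicate 1 of CD4 WT, STAT3ko and STAT3ko PD-1ko, and at 164, 140 and 72.5 CPM in replicate 2. In CD8 cells it was at 366, 424 and 166 CPM in replicate 1 and at 51.6, 82.4 and 37.0 CPM in replicate 2. Replicate 2 was lower in all 6 groups, and no replicate 2 library reached the lowest replicate 1 library. Dusp5, the nuclear ERK phosphatase gene at chr19:53529145-53541809, was at 776, 657 and 295 CPM in replicate 1 of the CD4 groups in the same order and at 155, 149 and 128 CPM in replicate 2. The CD8 levels were 611, 558 and 245 CPM in replicate 1 and 106, 135 and 123 CPM in replicate 2. The replicate 2 libraries thus lay between 106 and 155 CPM in all genotypes, below every replicate 1 library. Dusp5 overlaps 3 listed small RNA genes on the opposite strand, and the strand setting of the counting is not given in the sources used here.

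With the replicate number as a term in the fit of each subset (edgeR quasi-likelihood test, Benjamini-Hochberg adjustment over all genes), 5 of the 10 genes were lower in replicate 2 of CD4 T cells, against 2.39% of all genes called in either direction. These were Dusp1 (log2 change -2.01 ± 0.09 SE, adjusted p = 0.000342), Dusp5 (-1.87 ± 0.20, 0.00747), Spry2 (-1.53 ± 0.21, 0.0194), Dusp10 (-1.25 ± 0.22, 0.0365) and Dusp4 (-1.09 ± 0.20, 0.0418). In CD8 T cells 1 of 10 was called, Dusp1 at -2.44 ± 0.14 (adjusted p = 0.00456), against 0.350% of genes, and DESeq2 called 7 there, against 2.35%. Dusp1, Dusp4, Dusp5, Dusp6, Dusp10 and Spry2 were lower in replicate 2 in all 6 groups, where 9.68% of genes were. CD4 and CD8 libraries of the same genotype and number share their livers, so the 6 groups give 3 independent pairs of pools. Ptpn6 and Ptpn11 showed no such split, with log2 differences between -0.36 and 0.15 in the 6 groups.

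**Figure D2:**
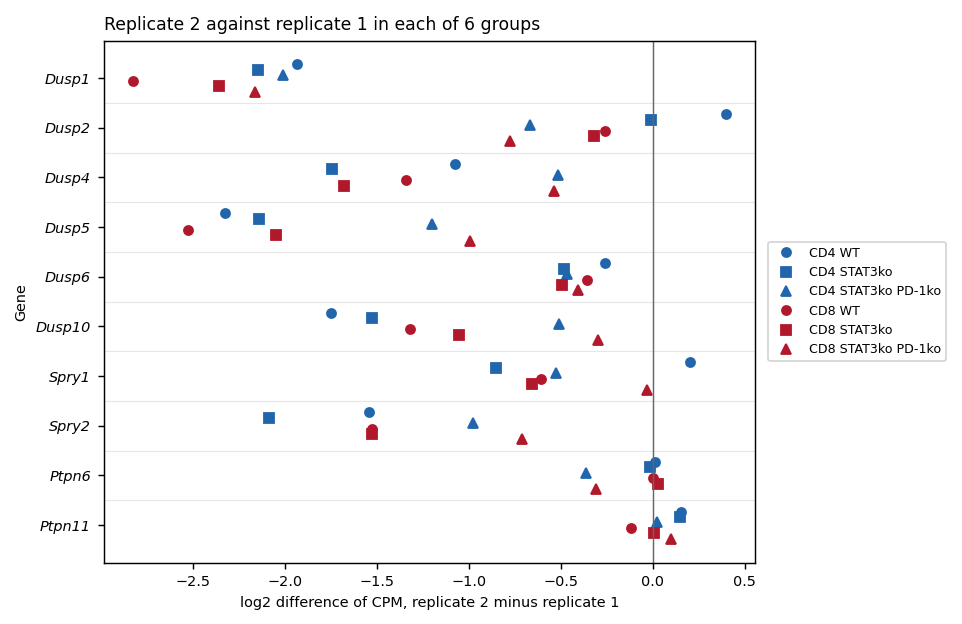
Difference of log2 CPM between replicate 2 and replicate 1 of each group for the 10 genes. Points left of 0 are lower in replicate 2. All 6 points of Dusp1 lie between -2.83 and -1.94, and those of Ptpn6 and Ptpn11 lie around 0.

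Genes known to respond to tissue handling, immediate early and heat shock genes among them, also differed by the number. Of 16 such genes, 9 were called lower in replicate 2 in CD4 and 3 in CD8, against the same 2.39% and 0.350% of all genes, and the fitted difference was negative for all 16 in both, with a median log2 difference of -1.19 in CD4 and -1.05 in CD8, beside 0.0071 and 0.0096 over all genes. All 16 were detected in each of the 12 libraries. Their summed level was 5180, 4785 and 2390 CPM in replicate 1 of CD4 WT, STAT3ko and STAT3ko PD-1ko and 2226, 1864 and 1516 CPM in replicate 2. In CD8 the sums were 3599, 3507 and 1822 CPM in replicate 1 and 1383, 1437 and 1260 CPM in replicate 2. The most abundant gene was Nfkbia, at 1225 CPM, in replicate 1 of CD4 WT. The sums were thus lowest in the STAT3ko PD-1ko library of every subset and number, as Dusp1 was, and their part in the results for Dusp1, Dusp5 and Dusp10 was not tested.

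STAT3 loss alone gave no called change in the 10 genes. In STAT3ko against WT, edgeR without a replicate term called 0 of 10 in CD4 and 0 of 10 in CD8, against 0.334% and 0.0583% of all genes. DESeq2 also called 0 in both, beside 2.11% of all genes in CD4 and 1.68% in CD8. Limma called 0 in both, beside 0.251% and 0.025%. At an unadjusted p under 0.05 there were 1 in CD4 (Spry1) and 0 in CD8, beside 10.5% and 11% of all genes. With the replicate term in CD4, still 0 of 10 were called, against 2.53% of all genes. Spry1 was the member with the largest fitted difference in CD4, -0.78 ± 0.32 (log2, adjusted p = 0.438). The edgeR fits without the term did not call the deleted Stat3 either. It stood at -1.455 ± 0.22 in CD4 (adjusted p = 0.0550) and -1.461 ± 0.20 in CD8 (0.108). With the term Stat3 was called in CD4 (adjusted p = 0.00197) and not in CD8 (0.0920). A count of 0 called here thus does not show that the genes were unchanged.

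STAT3ko PD-1ko T cells differed more widely from the others, with 12.9% of all genes called against WT in CD4 and 17.2% in CD8, and 11.1% and 16.8% against STAT3ko. Of the 10 genes, 0 were called in each of these 4 comparisons by edgeR without a replicate term. At an unadjusted p under 0.05 there were 2 and 4 against WT in CD4 and CD8, beside 28.7% and 34% of all genes, and 1 and 1 against STAT3ko, beside 29.4% and 34.4%. DESeq2 called 2 against WT in CD8 (Spry1 and Ptpn11, beside 22% of all genes). Limma on log2(RPKM + 1) called 1 there (Ptpn11, beside 16.8%). Both called 0 against WT in CD4 and against STAT3ko in CD4 and CD8. In these 3 comparisons DESeq2 called 17.5%, 17.4% and 23.1% of all genes, and limma 12.4%, 10.7% and 16.3%. The median fitted log2 change of the 10 was -0.43 in CD4 and -0.53 in CD8 against WT, beside -0.011 and -0.00062 over all genes tested, and -0.42 and -0.32 against STAT3ko, beside -0.013 and -0.0028. In CD4 T cells the replicate numbers were taken to pair the libraries, from the correlation of their deviations. With the number as a term there, 4 of 10 were called against WT, 3 lower and 1 higher, where 26.0% of all genes were, and 2 of 10 against STAT3ko, both lower, where 26.0% of genes were. Read against that background, 4 and 2 of 10 do not set these genes apart. Both CD4 comparisons use the same 2 STAT3ko PD-1ko libraries. In CD8, from the same livers, that correlation was weaker in part, and the term was kept as an alternative. It called 6 of 10 there against WT (Dusp1, Dusp2, Dusp6, Dusp10, Spry1 and Ptpn11), where 24.7% of all genes were. Against STAT3ko it called 1 (Dusp1), where 24.4% were.

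Within a replicate number, each subset gives 1 difference per number and hence 4 for each comparison. CD4 and CD8 libraries of the same genotype and number share their livers, so the 4 differences are not independent. Dusp1, Dusp6, Dusp10, Spry1 and Ptpn6 were lower in STAT3ko PD-1ko than in WT in all 4, where 27.8% of genes were, and Ptpn11 was higher in all 4, where 27.1% were. Against STAT3ko, Dusp1, Dusp2, Dusp5, Dusp6, Dusp10 and Ptpn6 were lower in all 4 (27.9% of genes) and Ptpn11 was higher in all 4 (26.7%). For STAT3ko against WT, Dusp6 and Spry1 were lower in all 4 (23.9% of genes) and Ptpn11 was higher in all 4 (24.8%).

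**Figure D3:**
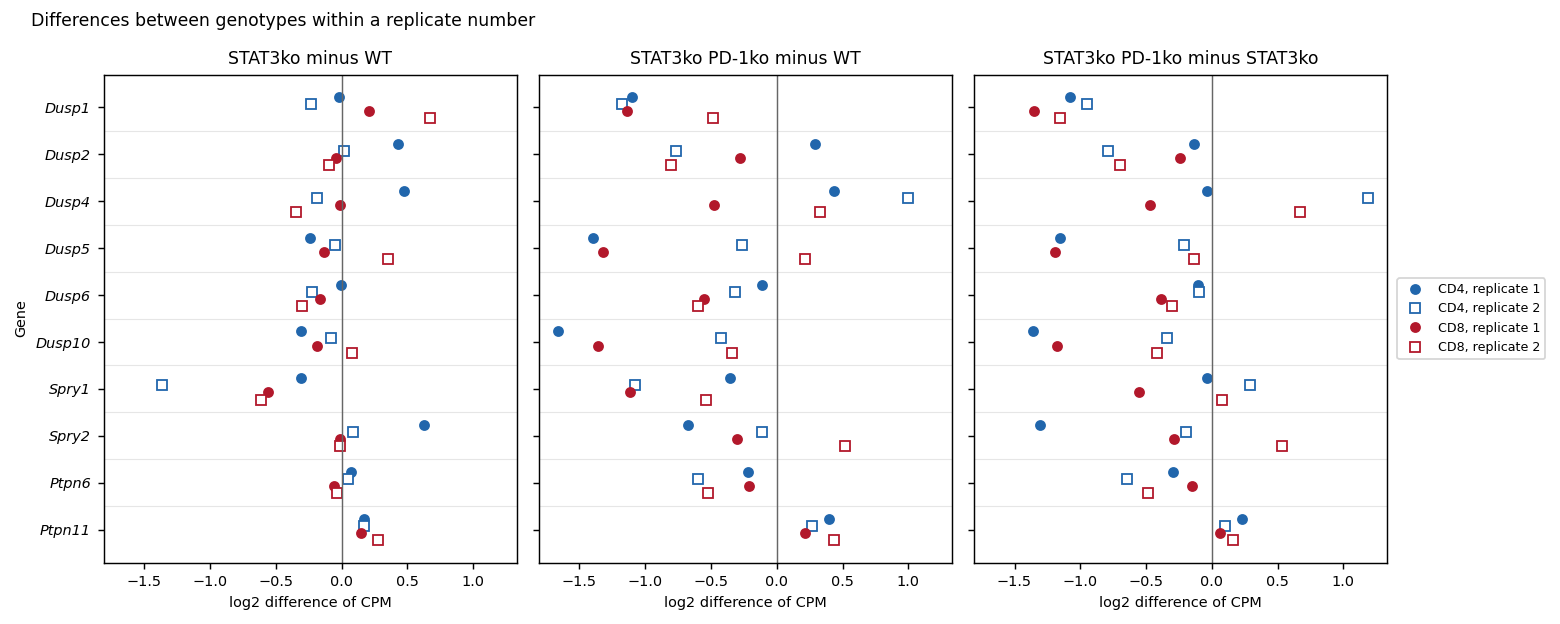
Difference of log2 CPM between genotypes within one subset and replicate number, 4 points per gene and comparison. In the middle panel all 4 points of Ptpn11 lie between 0.21 and 0.44 and all 4 of Ptpn6 between -0.60 and -0.21. The replicate 1 points (filled circles) of Dusp5 and Dusp10 lie left of the replicate 2 points (open squares) there.

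Among the inducible nuclear phosphatase genes, Dusp1 had the smallest adjusted p of the 10 in CD4 with the replicate term. The log2 difference of STAT3ko PD-1ko from WT was -1.10 and -1.18 in replicates 1 and 2 of CD4 and -1.14 and -0.48 in CD8. The fit without a replicate term gave -1.10 ± 0.88 in CD4 (adjusted p = 0.461) and -1.03 ± 1.07 in CD8 (0.547). With the term in CD4, Dusp1 fell by 1.12 ± 0.11 against WT (adjusted p = 0.000776) and by 1.00 ± 0.11 against STAT3ko (0.00165). In both subsets and both numbers the STAT3ko PD-1ko library was the lowest of the 3 genotypes.

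Dusp5 and Dusp10 differed between genotypes mainly in replicate 1. For Dusp5 the difference of STAT3ko PD-1ko from WT was -1.39 in replicate 1 and -0.27 in replicate 2 of CD4, and -1.32 and 0.21 in CD8, so that 1 of the 4 lay on the other side of 0. Dusp10, at chr1:184034381-184075636, was at 162, 131 and 51 CPM in replicate 1 of CD4 WT, STAT3ko and STAT3ko PD-1ko and at 48.1, 45.5 and 35.9 CPM in replicate 2. For CD8 T cells the values were 90.9, 79.8 and 35.4 CPM in replicate 1 and 36.4, 38.4 and 28.7 CPM in replicate 2. The STAT3ko PD-1ko library was the lowest of each set, by much more in replicate 1. In CD4 with the replicate term, Dusp5 was called at -0.79 ± 0.24 (adjusted p = 0.0467) and Dusp10 at -1.01 ± 0.27 (0.0278) against WT, and neither was called against STAT3ko. Without the term their adjusted p-values against WT were 0.436 and 0.230.

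Dusp2, which encodes a phosphatase long known from activated T cells, lies at chr2:127336159-127338377. It was at 318 and 419 CPM in replicates 1 and 2 of CD4 WT, 428 and 425 in STAT3ko, and 390 and 246 in STAT3ko PD-1ko. In CD8 it was at 348 and 291 CPM in WT, 338 and 271 in STAT3ko, and 286 and 167 in STAT3ko PD-1ko. In CD4 both STAT3ko libraries lay above the other 4, which overlapped, and in CD8 the lower STAT3ko PD-1ko library lay below all others while the upper one lay among them. Its fitted changes against WT were -0.19 ± 0.24 in CD4 and -0.49 ± 0.24 in CD8, with adjusted p-values of 0.631 and 0.208.

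Dusp4, at chr8:34807610-34819894, differed from Dusp1 in direction in CD4 T cells. It was at 107 and 50.8 CPM in CD4 WT, 149 and 44.5 in CD4 STAT3ko, and 145 and 102 in CD4 STAT3ko PD-1ko. The CD8 levels were 139 and 54.8 CPM in WT, 138 and 43.2 in STAT3ko, and 100 and 68.9 in STAT3ko PD-1ko. The STAT3ko PD-1ko libraries of replicate 2 were thus the highest of their number in both subsets, whereas in replicate 1 of CD8 the STAT3ko PD-1ko library was the lowest. The fitted change against WT was 0.67 ± 0.54 in CD4 (adjusted p = 0.465) and -0.19 ± 0.57 in CD8 (0.851). Against STAT3ko in CD4 it was 0.37 ± 0.54 (adjusted p = 0.682), and it was called at 1.47 (adjusted p = 0.0435) only when the replicate 1 library of CD4 STAT3ko was left out.

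Dusp6, the cytoplasmic ERK phosphatase gene at chr10:99263231-99267489, had small differences of one direction. It was at 152 and 126 CPM in CD4 WT, 151 and 108 in CD4 STAT3ko, and 140 and 101 in CD4 STAT3ko PD-1ko. For CD8 T cells the values were 108 and 84.4 CPM in WT, 96.4 and 68.5 in STAT3ko, and 73.7 and 55.6 in STAT3ko PD-1ko. Within each number, WT was highest and STAT3ko PD-1ko lowest in both subsets, and the CD8 groups of WT and STAT3ko PD-1ko did not overlap. The fitted change of STAT3ko PD-1ko against WT was -0.18 ± 0.22 in CD4 (adjusted p = 0.632) and -0.57 ± 0.21 in CD8 (0.111). With the replicate term, an alternative in CD8, Dusp6 was called there (edgeR, -0.57 ± 0.10, adjusted p = 0.0122).

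The Sprouty genes were the least abundant of the 10. Spry1, at chr3:37639947-37644599, was at 13.9 and 16.0 CPM in CD4 WT, 11.2 and 6.18 in CD4 STAT3ko, and 10.9 and 7.54 in CD4 STAT3ko PD-1ko. In CD8 it was at 17.3 and 11.3 CPM in WT, 11.7 and 7.4 in STAT3ko, and 7.96 and 7.80 in STAT3ko PD-1ko. WT was above both other genotypes within each number and subset, and the lowest library held 139 Spry1 counts. The fitted change of STAT3ko PD-1ko against WT was -0.68 ± 0.31 in CD4 (adjusted p = 0.207) and -0.85 ± 0.29 in CD8 (0.0834), and in CD8 it passed the threshold in DESeq2 (adjusted p = 0.0386) and in edgeR without the filter on low counts (0.0418). Spry2, at chr14:105891947-105896819, was at 19.9 and 6.82 CPM in CD4 WT, 30.8 and 7.25 in CD4 STAT3ko, and 12.5 and 6.31 in CD4 STAT3ko PD-1ko. The CD8 levels were 36.7 and 12.7 CPM in WT, 36.3 and 12.6 in STAT3ko, and 29.8 and 18.2 in STAT3ko PD-1ko. The genotypes overlapped in each subset. Its fitted change against WT was -0.49 ± 0.71 in CD4 and -0.029 ± 0.59 in CD8 (adjusted p = 0.702 and 0.980).

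The SHP phosphatase genes lay on opposite sides. Ptpn6, at chr6:124720707-124738709, was at 398 and 402 CPM in CD4 WT, 419 and 414 in CD4 STAT3ko, and 341 and 266 in CD4 STAT3ko PD-1ko. For CD8 T cells the values were 407 and 408 CPM in WT, 390 and 398 in STAT3ko, and 351 and 284 in STAT3ko PD-1ko. The 8 libraries of WT and STAT3ko stood within 390 to 419 CPM, and all 4 STAT3ko PD-1ko libraries were below them. The fitted change against WT was -0.38 ± 0.15 in CD4 (adjusted p = 0.156) and -0.35 ± 0.12 in CD8 (0.0916), and against STAT3ko it was -0.44 ± 0.15 in CD4 (0.109) and -0.30 ± 0.12 in CD8 (0.132). With the replicate term, Ptpn6 fell by 0.45 ± 0.13 against STAT3ko in CD4 (adjusted p = 0.0377), and a fit of all 12 libraries without the term also called it (-0.46, 0.0466).

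Ptpn11, at chr5:121130533-121191397, was at 476 and 529 CPM in CD4 WT, 536 and 594 in CD4 STAT3ko, and 627 and 636 in CD4 STAT3ko PD-1ko. In CD8 it was at 415 and 382 CPM in WT, 461 and 462 in STAT3ko, and 481 and 516 in STAT3ko PD-1ko. Both libraries of STAT3ko PD-1ko lay above both of STAT3ko, and both of STAT3ko above both of WT, in each subset. The fitted change of STAT3ko PD-1ko against WT was 0.35 ± 0.14 in CD4 (adjusted p = 0.144) and 0.33 ± 0.10 in CD8 (0.0638). It was called in CD4 with the replicate term (0.35 ± 0.11, adjusted p = 0.0420), and in CD8 by DESeq2 (0.32, 0.0378) and by limma on log2(RPKM + 1) (0.35, 0.0492).

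In all 6 pools the CD8 library was below the CD4 library from the same livers for Dusp1, Dusp5, Dusp6, Dusp10 and Ptpn11, where 21% of all genes were. It was above the CD4 library in all 6 for Spry2, where 20.2% of all genes were. Not all of these differences passed a test. Without a term for the pool, edgeR called 0 of 10 in WT, STAT3ko and STAT3ko PD-1ko, against 10.5%, 9.62% and 4.14% of all genes. At an unadjusted p under 0.05 there were 1, 2 and 2, beside 22.1%, 22% and 14.7% of all genes. DESeq2 called 1 (Ptpn11), 0 and 1 (Dusp6), beside 11.3%, 11% and 5.97% of all genes. With a term for each of the 6 pools, 6 of 10 were called in WT, 6 in STAT3ko and 5 in STAT3ko PD-1ko, against 24.3%, 24.9% and 14.4% of all genes. Of these, Spry2 alone was higher in CD8, in each genotype. Of the 16 tissue handling genes, 10, 10 and 8 were lower in CD8 in WT, STAT3ko and STAT3ko PD-1ko in the same fit and 0, 1 and 0 were higher, with median log2 differences of -0.73, -0.47 and -0.44. Without the pool terms 0 of the 16 were called in each genotype. Of 17 transcripts induced by ERK or T cell activation, which share 7 genes with that list, 11, 10 and 9 were lower in CD8 and 0, 2 and 1 higher in the fit with the pools. Without the pool terms 2 of the 17 (Egr2 and Egr3) were lower and 0 higher in each genotype. The part of either list in the lower Dusp1, Dusp5 and Dusp10 of CD8 was not tested.

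For Dusp6 the CD8 libraries were at 0.53 to 0.71 times their CD4 partners, and the fit with pool terms gave -0.54 ± 0.08 in WT (adjusted p = 0.00164), -0.65 ± 0.08 in STAT3ko (0.000721) and -0.90 ± 0.08 in STAT3ko PD-1ko (0.000301). For Spry2 the same fit gave 0.89 ± 0.15 in WT (adjusted p = 0.00310), 0.48 ± 0.14 in STAT3ko (0.0438) and 1.38 ± 0.15 in STAT3ko PD-1ko (0.000743). For Dusp1 it gave -1.21 ± 0.18 in WT (adjusted p = 0.00188), -0.65 ± 0.18 in STAT3ko (0.0289) and -0.89 ± 0.18 in STAT3ko PD-1ko (0.0136). Ptpn11 was lower in CD8 by -0.33 ± 0.09 in WT (0.0300, adjusted p), -0.29 ± 0.09 in STAT3ko (0.0485) and -0.34 ± 0.09 in STAT3ko PD-1ko (0.0407). Dusp10 was called in WT and STAT3ko, Dusp5 in WT, Dusp2 in STAT3ko and Dusp4 in STAT3ko PD-1ko. Ptpn6 and Spry1 were called in none of the 3, with log2 differences of Ptpn6 between -0.10 and 0.10 in the 6 pools.

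**Figure D4:**
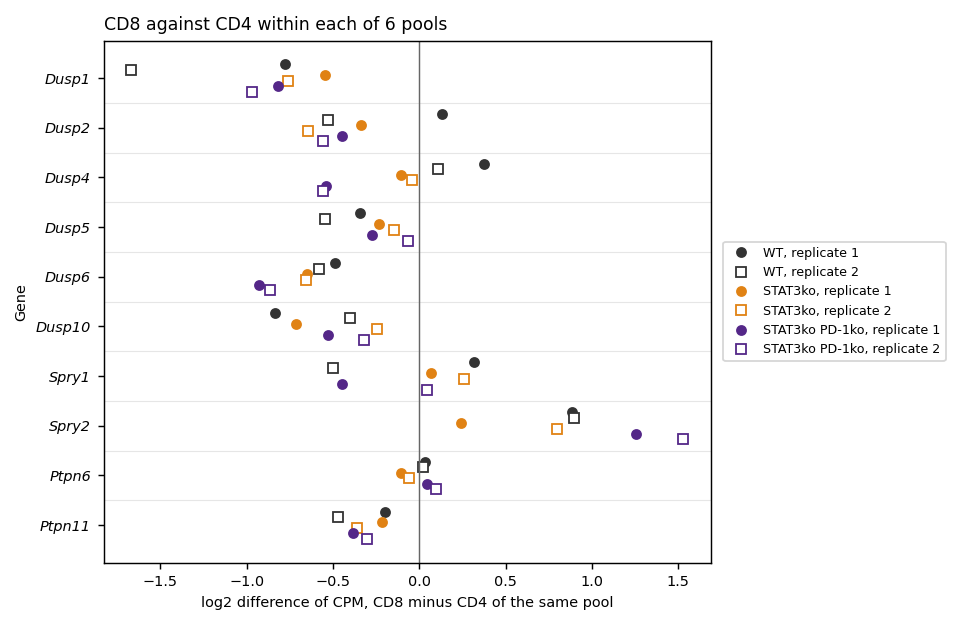
Difference of log2 CPM between the CD8 and the CD4 library of the same pool of recipients, 6 points per gene. All 6 points of Dusp1, Dusp5, Dusp6, Dusp10 and Ptpn11 lie left of 0 and all 6 of Spry2 right of it, and the points of Ptpn6 lie around 0.

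The genotype comparisons themselves could be set against each other between subsets. Differences between the CD8 and the CD4 change were fitted for STAT3ko against WT, STAT3ko PD-1ko against WT and STAT3ko PD-1ko against STAT3ko. Without pool terms 0 of 10 were called in each, where 0%, 0.00811% and 0% of all genes were. At an unadjusted p under 0.05 there were 0 of 10 in each, beside 1.85%, 4.43% and 3.59% of all genes. DESeq2 called 0 of 10 in all 3, beside 0.017%, 0.615% and 0.165% of all genes. With pool terms 1 of 10 was called for STAT3ko PD-1ko against WT, where 0.681% of genes were, and 0 of 10 in the other 2, where 0% and 0.178% were. The gene was Dusp4, whose change in CD8 was lower than that in CD4 by 0.80 ± 0.13 (fitted value -0.80, adjusted p = 0.0368).

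Transcript levels were compared between the genes as CPM per kilobase of exon, averaged over the 12 libraries. Dusp2 led at 202 (range over libraries 103 to 264), followed by Dusp5 at 181 (58.3 to 428), Ptpn6 at 154 (109 to 172), Dusp1 at 131 (19 to 324) and Ptpn11 at 90.8 (68.0 to 113). Dusp4 at 39.3 (17.8 to 61.5), Dusp6 at 37.7 (19.9 to 54.2), Dusp10 at 23.4 (10.3 to 58.0), Spry2 at 9.18 (3.03 to 17.6) and Spry1 at 4.31 (2.48 to 6.92) followed. The ranges of all neighbours in this order overlapped except those of Ptpn11 and Dusp4. The order depended on the replicate number. Over the 6 replicate 1 libraries Dusp5 was the most abundant, at a mean of 289 CPM per kb, and Dusp1 was at 214. Over the 6 replicate 2 libraries Dusp2 led at 187 CPM per kb, and Dusp5 and Dusp1 were at 73.0 and 47.0, below Ptpn6 and Ptpn11. The ratio of the highest to the lowest library was 17.0 for Dusp1, 7.34 for Dusp5, 5.81 for Spry2 and 5.64 for Dusp10, but 1.67 for Ptpn11 and 1.58 for Ptpn6, so the SHP genes were the steadiest of the 10.

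The genes whose log2 CPM ran most alike over the 12 libraries were searched among the 8605 genes that averaged 3 or more on that scale, as a description, since all libraries share the split by replicate number. For Dusp1 they were Ppp1r15a, Ier2 and Fosb (Pearson r = 0.98 for each), an eIF2 phosphatase subunit of the stress response and a pair of immediate early genes. For Dusp5 they were Tnfaip3, an inhibitor of NF-κB (r = 0.997), Csrnp1 (0.985) and Hexim1 (0.985), and for Dusp10 Ccnl1 (0.987), Zfp954 (0.983) and Clk1 (0.980). Dusp4 ran with Phlda1 (0.957) and Klf4 (0.956), Dusp6 with Nfkbid (0.948), Spry1 with Socs3 (0.90) and Spry2 with Nr4a2 (0.947). For Dusp2 the first gene was Naa30 (0.918), for Ptpn6 Ubald1 (0.96) and for Ptpn11 Arhgap21 (0.973).

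The surrounding pathway showed which neighbours passed the test in STAT3ko PD-1ko T cells. Counts are from edgeR without the replicate term, and medians stand beside the all-gene medians of -0.011 (CD4) and -0.00062 (CD8) against WT. The share of all genes called in either direction was 12.9% in CD4 and 17.2% in CD8 against WT and 11.1% and 16.8% against STAT3ko, and 26.0% in both CD4 comparisons with the replicate term, and each count below is to be read against it. In STAT3ko against WT, 0 members of any of the 7 lists were called in either subset without that term. With it in CD4, where 2.53% of all genes were called, Ier3 and Lilrb4a were lower and Cd22, Ptpn4, Hspa1a and Hspa1b higher in STAT3ko, and 0 of the other genes of the lists were called.

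Of 16 genes of the Ras-ERK cascade itself, 1 was lower in each of the 4 comparisons with STAT3ko PD-1ko and 0 were higher. It was the same gene, Rasgrp1, which encodes the diacylglycerol-dependent activator of Ras in T cells. Rasgrp1 was at 530 and 494 CPM in CD4 WT, 391 and 391 in CD4 STAT3ko, and 258 and 274 in CD4 STAT3ko PD-1ko. The CD8 levels were 304 and 318, 234 and 233, and 153 and 146 CPM. The groups did not overlap and were ordered alike in both subsets, and the replicates of Rasgrp1 lay close together. Rasgrp1 fell by 0.92 ± 0.13 against WT in CD4 (adjusted p = 0.00772) and by 1.05 ± 0.10 in CD8 (0.00294), and by 0.54 ± 0.13 and 0.63 ± 0.10 against STAT3ko (0.0419 and 0.0115). The median log2 change of the 16 against WT was -0.12 in CD4 and -0.046 in CD8.

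Of 16 other Sprouty, SPRED, RasGAP, DOK and diacylglycerol kinase genes, 14 were tested. Against WT, 1 was lower in CD4 (Rasa3) and 4 in CD8 (Dok1, Rasa3, Rasal1, Rasal3), with 0 higher, and the medians were -0.51 and -0.37. Against STAT3ko, 3 were lower in CD4 and 3 in CD8 (Dgka, Rasa3 and Rasal3 in each), and 1 was higher in CD8 (Spred1). Rasa3, a Ras and Rap inactivator, was at 545 and 533 CPM in CD4 WT, 523 and 618 in STAT3ko, and 353 and 278 in STAT3ko PD-1ko, and at 535 and 478, 669 and 690, and 328 and 260 CPM in CD8. It fell by 0.75 ± 0.17 against WT in CD4 (adjusted p = 0.0273) and by 0.78 ± 0.13 in CD8 (0.0122). Dgka, which consumes diacylglycerol, fell by 0.99 ± 0.20 and 1.21 ± 0.20 against STAT3ko in CD4 and CD8 (adjusted p = 0.0263 and 0.0125), and gave -0.73 and -0.67 against WT without passing (0.0545 and 0.0601). With the replicate term in CD4, 7 of the 14 were lower against WT, and 5 were lower and 1 higher against STAT3ko.

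Of 8 other MAP kinase phosphatase genes, 0 were called in CD4, and 1 was lower in CD8 against WT and against STAT3ko. This was Dusp7, at 53.1 and 61.9 CPM in CD8 WT, 51.4 and 64.4 in STAT3ko, and 32.6 and 31.6 in STAT3ko PD-1ko. It fell by 0.83 ± 0.16 and 0.84 ± 0.16 (adjusted p = 0.0158 and 0.0169). The medians of the 8 against WT were -0.20 in CD4 and -0.056 in CD8. In CD4 with the replicate term, 3 were lower and 1 higher against WT, and 1 lower and 2 higher against STAT3ko.

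Of 16 partners that recruit SHP phosphatases, 13 were tested. Against WT, 5 were lower and 2 higher in CD4 (Cd22 and Cd244a higher), and 6 lower and 0 higher in CD8, with medians of -0.25 and -0.36. Against STAT3ko, 4 were lower and 1 higher in CD4, and 5 lower and 0 higher in CD8. The replicate term in CD4 gave 6 lower and 3 higher (Cd22, Cd244a and Cd72) against WT, and 6 lower and 1 higher against STAT3ko. Btla, Gab3, Lair1 and the deleted Pdcd1 were lower in all 4 comparisons. Lair1, an inhibitory collagen receptor, was at 66.8 and 50.5 CPM in CD4 WT, 50.2 and 39.5 in STAT3ko, and 27.3 and 21.6 in STAT3ko PD-1ko, and fell by 1.24 ± 0.21 against WT (adjusted p = 0.0118). Gab3, an adaptor that binds SHP-2, fell by 1.54 ± 0.19 in CD4 and 1.85 ± 0.22 in CD8 (0.00515 and 0.00493). Lilrb4a, an inhibitory receptor, fell by 1.83 ± 0.32 in CD4 and 1.65 ± 0.23 in CD8 (0.0139 and 0.00739). For Lair1, Gab3 and Lilrb4a the STAT3ko library lay between those of WT and STAT3ko PD-1ko within each number and subset.

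Of 12 other protein tyrosine phosphatase genes, 2 were lower in CD4 and 7 in CD8 against WT, 2 and 4 against STAT3ko, and 0 were higher in any of the 4. The medians against WT were -0.43 and -0.53, close to those of the 10 genes. Ptpn18 was the member lower in all 4, by 0.58 ± 0.15 in CD4 (adjusted p = 0.0457) and 0.83 ± 0.14 in CD8 (0.0129) against WT. Ptpn13 fell by 0.70 ± 0.11 (0.00991) and Ptpn12 by 0.93 ± 0.15 (0.010) against WT in CD8, and Ptpn4 by 0.70 ± 0.14 there (0.0174). With the replicate term in CD4, 7 were lower against WT and 4 against STAT3ko.

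Of 17 transcripts induced by ERK or T cell activation, 1 was lower in CD4 (Ier3) and 2 in CD8 (Egr3, Ier3) against WT, and Etv4 was higher in CD8 against WT and in both subsets against STAT3ko. The medians against WT were -1.0 in CD4 and -1.09 in CD8. Etv4, an ETS factor gene often used as a readout of ERK activity, was at 2.50 and 4.66 CPM in CD4 WT, 1.88 and 1.69 in STAT3ko, and 7.10 and 10.1 in STAT3ko PD-1ko. For CD8 T cells the values were 3.65 and 4.47, 2.33 and 2.00, and 6.98 and 9.47 CPM. Its order over the genotypes was thus STAT3ko, WT and STAT3ko PD-1ko, with no overlap in either subset, and it rose by 1.03 ± 0.26 against WT in CD8 (adjusted p = 0.0368) and by 2.28 ± 0.37 and 1.94 ± 0.27 against STAT3ko (0.0146 and 0.00817). Ier3 was at 7.91 and 6.31 CPM in CD4 WT and 2.90 and 1.67 in CD4 STAT3ko PD-1ko, and fell by 1.62 ± 0.34 (0.0243). In CD4 with the replicate term, 9 of the 17 were lower and 2 higher against WT (Etv4 and Etv5 higher, Fos, Fosb, Jun and Junb among the lower), and 6 were lower and 1 higher against STAT3ko. The list of 16 tissue handling genes gave 1 lower and 0 higher in CD4 and 1 lower and 1 higher (Hsp90aa1) in CD8 against WT. Against STAT3ko 0 were lower in either subset, and Hsp90aa1 was higher in CD8. The medians of the 16 were -0.99 in CD4 and -0.82 in CD8 against WT, and -0.805 and -0.817 against STAT3ko. In CD4 with the replicate term, 9 were lower and 1 higher both against WT and against STAT3ko.

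**Figure D5:**
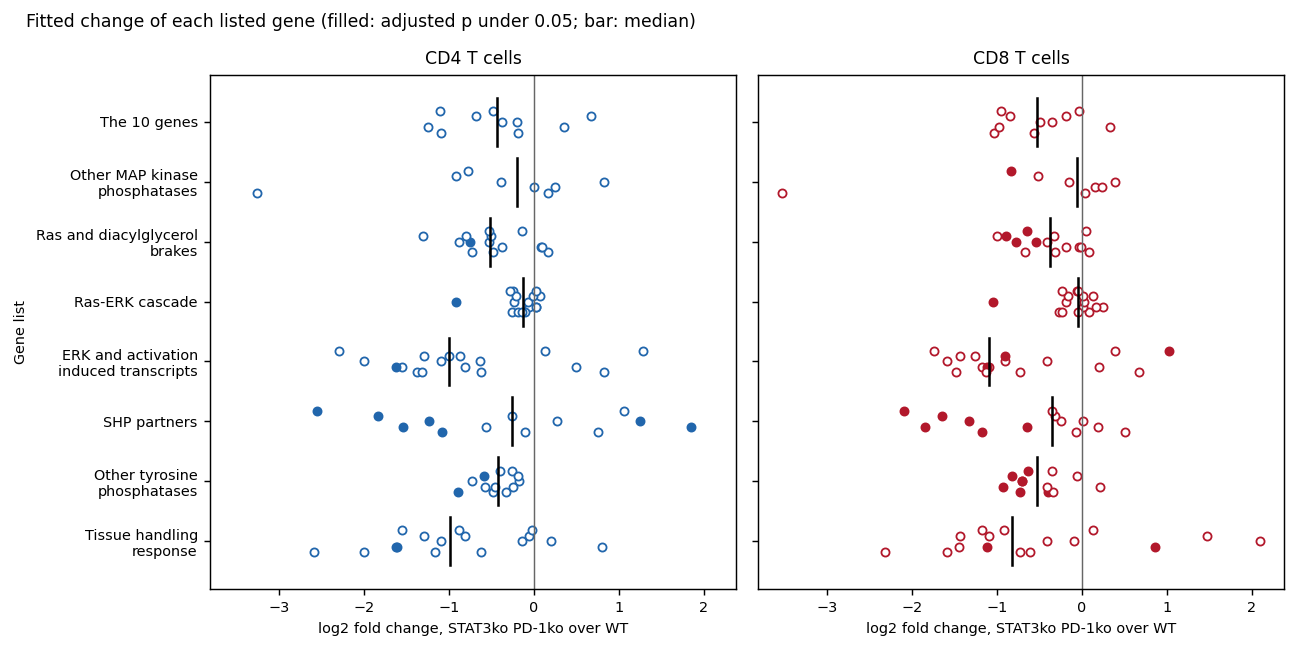
Fitted log2 fold change of STAT3ko PD-1ko over WT for the 10 genes and for each tested gene of 7 lists, in CD4 (left) and CD8 (right) T cells, from edgeR without the replicate term. Filled points passed an adjusted p of 0.05 and bars are medians, which lie at -0.43 and -0.53 for the 10 genes, none of them filled.

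Markers of other cells were low, and several sets differed between genotypes. Myeloid markers (10 genes) summed to between 46.9 and 103 CPM in the 8 WT and STAT3ko libraries. In the 4 STAT3ko PD-1ko libraries they summed to between 18.6 and 25.7 CPM. Itgam was the most abundant on average over the libraries and made up most of the sum in each WT and STAT3ko library. Itgam alone was between 39.7 and 69.9 CPM in those 8 libraries and between 6.49 and 11.99 CPM in STAT3ko PD-1ko. The difference between the sums thus came largely from this gene, and the sum without it was not tested. S100a8, S100a9 or Adgre1 was at 0 in 6 of the 12 libraries. B cell markers (4 genes in the table) summed to between 1.63 and 2.35 CPM in CD4, to between 10.7 and 14.7 CPM in CD8 WT and STAT3ko, and to 6.01 and 5.22 CPM in CD8 STAT3ko PD-1ko, most of it Cd79b, with Ms4a1 at 0 in every library. Hepatocyte markers (10 genes) summed to between 1.51 and 5.14 CPM, with Trf the most abundant and Apoc3, Ttr or Fabp1 often at 0. Endothelial markers (5 genes) summed to between 0.424 and 6.29 CPM, with Egfl7 the most abundant on average and with Clec4g at 0 in all 6 replicate 1 libraries. Both of these sums were highest in STAT3ko PD-1ko within every subset and number. Of the erythroid markers all 4 globin genes were at 0 in every library.

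T cell markers themselves (10 genes, Thy1 the most abundant on average, at 1393 to 1961 CPM) summed to 7792, 7099 and 6230 CPM in replicate 1 of CD4 WT, STAT3ko and STAT3ko PD-1ko and to 7387, 7070 and 5990 CPM in replicate 2. The sums in CD8 were 8055, 7367 and 5488 CPM in replicate 1 and 8211, 7976 and 5561 CPM in replicate 2. STAT3ko PD-1ko was the lowest in all 4. The part of these sums in the differences between STAT3ko PD-1ko and the other genotypes was not tested. In sorted bulk T cells, fewer cells that express a gene and less of its RNA per cell cannot be told apart.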

How the data were processed

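RNA sequencing of 12 liver T cell libraries was analysed as gene counts. According to the study's methods, the authors aligned 51-base single-end reads to mm10 with STAR (version 2.7) and made the deposited counts per RefSeq gene with HTSeq-count (version 0.11), whose strand setting is not given in the sources used here. The deposited RPKM values, counts scaled by the authors to exon length and library size, were used only as an alternative with limma on log2(RPKM + 1). The methods name a stranded mRNA kit and the labels another kit, and which was used is not known. Column names gave every library its group, and 0 columns belonged to other samples.

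Counts were fitted with edgeR 4.0.16 (R 4.3.3; quasi-likelihood test, TMM scaling, filterByExpr with a minimum count of 10 and a total of 15), with Benjamini-Hochberg adjustment over all 11959 genes in CD4 and 12002 in CD8 and a threshold of 0.05. Each subset's 6 libraries entered 1 fit, and all 12 libraries (12334 genes) entered the fit of CD8 against CD4 and of the differences between subsets. CPM used the TMM factors of all 12 libraries, and CPM per kilobase divided them by the deposited exon length. DESeq2 1.42.0, limma 3.58.1, RLE scaling, other filters, other libraries in the fit, a replicate term and leaving out each library were alternatives. The fits were also run on simulated CD4 counts with the same spread for every gene. The simulated differences between numbers were mostly far smaller than that of Dusp1, so the run does not cover such genes. No result here rests on it.

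Library totals were 21676125 to 24551477 counts, so counting error is small beside the difference between replicates, which exceeded sampling noise in every group. Each group had 2 libraries, and an exact two-sided permutation test of 2 against 2 cannot go below p = 0.333, so single genes were tested only in the fits across genes. The replicate numbers were checked for pairing over the 12334 genes. Deviations of same-numbered libraries from their group means correlated at 0.63, 0.30 and 0.20 between the CD4 groups, and the numbers were taken to pair the CD4 libraries. Between the CD8 groups they correlated at 0.65, 0.16 and 0.060, and the CD8 genotype comparisons with the term were treated as alternatives. Pools paired in one subset would also be paired in the other, since the subsets share livers. The lower CD8 values therefore do not show that the CD8 libraries were unpaired. The number itself was tested in both subsets. The pairing is seen in the data, and no label says what the number stands for. CD4 and CD8 libraries of 1 genotype and number share livers, and a term for each of the 6 pools was added after seeing the data, as was the test of the number itself.

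The 10 genes, the 7 gene lists and the marker lists were chosen with earlier results of these data known. All 10 genes are named in every comparison, and of each list up to 4 called genes with the smallest p over the 4 comparisons with STAT3ko PD-1ko, with further genes named after their values were seen. Promoter sequences are from RefSeq (GRCm38.p6).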

Additional observations from a re-analysis of the deposited data

Results flagged for a closer look

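The change of Dusp4 between STAT3ko PD-1ko and WT differed between CD8 and CD4 T cells by -0.80 ± 0.13 on the log2 scale (edgeR, interaction term with a term for each pool, adjusted p = 0.0368). Within replicate numbers the log2 change was 0.44 and 1.00 in CD4 and -0.48 and 0.33 in CD8. It was lower in CD8 in both numbers. Without the pool terms 0 of the 10 genes passed this test. What lies behind the difference was not tested.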

How the results depend on the processing

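The edgeR fits without a replicate term called 0 of the 10 genes in each genotype, subset and interaction comparison, and the alternatives that called any are given here. The replicate term called 4 genes for STAT3ko PD-1ko against WT and 2 against STAT3ko in CD4, and in CD8 it called 6 (Dusp1 -0.82, Dusp2 -0.53, Dusp6 -0.57, Dusp10 -0.84, Spry1 -0.81, Ptpn11 0.33) and 1 (Dusp1 -1.24), beside 24.7% and 24.4% of all genes. Of the 3 correlations between same-numbered CD8 libraries of different genotypes, 1 was at 0.060, and the term was kept as an alternative in CD8. The CD8 libraries share livers with the CD4 libraries, so this does not show that they were unpaired. The replicate term changed no call for STAT3ko against WT in either subset. For CD8 against CD4 it called 4 in WT, 2 in STAT3ko and 3 in STAT3ko PD-1ko (16.3%, 15.5% and 7.61% of all genes), the pool terms called 6, 6 and 5, and for the difference between subsets of STAT3ko PD-1ko against WT the pool terms called 1 (Dusp4). DESeq2 called 2 for STAT3ko PD-1ko against WT in CD8 (Spry1, Ptpn11), 1 for CD8 against CD4 in WT, 1 in STAT3ko PD-1ko and 7 for the replicate number in CD8, where edgeR called 1. Without the filter 1 gene was called for STAT3ko PD-1ko against WT in CD8 (Spry1) and 1 for CD8 against CD4 in STAT3ko PD-1ko. The fits without the filter called 13.8% and 3.7% of all genes in these comparisons. Limma on log2(RPKM + 1) called 1 for STAT3ko PD-1ko against WT in CD8 (Ptpn11). A fit of all 12 libraries called 1 for STAT3ko PD-1ko against STAT3ko in CD4 (Ptpn6). The same fit called 18.6% of all genes in that comparison. Leaving out each library called 0 to 1 there, the 1 being Dusp4 without replicate 1 of CD4 STAT3ko. Among the log2 changes of single genes between genotypes, under alternatives other than leaving out a library, 453 kept their direction and side of the threshold, 18 passed it newly and 9 turned sign. The sign turned in CD8 for Dusp5 in STAT3ko against WT (0.070 with the replicate term, 0.11 with limma, -0.051 otherwise), for Spry2 in STAT3ko PD-1ko against WT (0.12, 0.11, -0.029), and against STAT3ko for Spry2 (0.14, 0.12, 0.0023 with a mean of at least 50 counts, -0.014) and Dusp4 (0.12, 0.12, -0.090). The cause was not tested.

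In CD4 STAT3ko against WT, leaving out each library in turn gave log2 changes of Dusp1 -1.48 to 1.20, Dusp5 -1.62 to 1.37, Dusp6 -0.35 to 0.12, Dusp10 -1.19 to 0.86, Dusp4 -0.81 to 0.92 and Spry2 -0.86 to 1.47. In CD4 STAT3ko PD-1ko against WT, leaving out each library in turn gave log2 changes of Dusp1 -2.41 to 0.16, Dusp5 -1.85 to 0.46, Spry2 -1.07 to 0.47, Dusp2 -0.56 to 0.091 and Dusp6 -0.43 to 0.023. In CD4 STAT3ko PD-1ko against STAT3ko, leaving out each library in turn gave log2 changes of Dusp1 -2.35 to 0.39, Dusp5 -1.62 to 0.51, Dusp6 -0.33 to 0.16, Spry2 -1.69 to 0.37, Spry1 -0.26 to 0.58 and Dusp4 -0.25 to 1.47. In CD8 STAT3ko against WT, leaving out each library in turn gave log2 changes of Dusp2 -0.23 to 0.076, Dusp4 -1.16 to 0.72, Dusp5 -1.40 to 1.70, Dusp10 -0.72 to 0.69, Spry2 -0.96 to 0.93 and Dusp1 -1.33 to 2.28. In CD8 STAT3ko PD-1ko against WT, leaving out each library in turn gave log2 changes of Dusp1 -2.50 to 0.97, Dusp4 -0.72 to 0.62, Dusp5 -1.74 to 0.79 and Spry2 -0.62 to 0.91. In CD8 STAT3ko PD-1ko against STAT3ko, leaving out each library in turn gave log2 changes of Dusp1 -2.78 to 0.30, Dusp4 -0.70 to 0.97, Dusp5 -1.59 to 0.44, Spry1 -0.56 to 0.091 and Spry2 -0.59 to 0.93. These fits leave an arm with 1 library and assume that it varies like the others. Among these log2 changes 188 kept their direction and side, 51 turned sign and 1 passed newly.

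With 2 libraries a group and a large difference between the numbers, the fits without the term could not resolve changes of 1 log2 unit in Dusp1 or Dusp5, whose SE was 0.84 to 1.08.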
